A study of Mus musculus with 18 samples.

Results

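The response of islets lacking the zinc transporter ZnT8 (Slc30a8) to 24 h of proinflammatory cytokines was followed over every gene with enough reads to test. The members were the genes of the full count table that passed a filter on low counts, and 17590 of 55536 listed genes did so. The comparison used 6 of the 18 libraries of the series, 3 from cytokine-treated and 3 from untreated knockout islets. The other 12 libraries came from wild-type (ZNT8 +/+) and heterozygous (ZNT8 +/-) islets, again 3 with and 3 without cytokines per genotype. All islets came from 17-week-old male NOD.CB17-Prkdcscid/NCrCrl mice, and the 6 knockout libraries came from ZNT8 -/- animals. The scid mutation, which treated, untreated, knockout and control animals all carried, leaves a mouse without mature T and B cells and limits these islets as a model of autoimmune attack. Islets were freed with Cizyme RI, purified on a Lympholyte gradient, left overnight to stabilise, and then cultured for 24 h in RPMI1640 with or without TNF-a at 100 pg/ml, IL-1b at 150 pg/ml and IFN-g at 10 pg/ml. RNA of whole islets was sequenced on a NovaSeq. The labels state 3 mice per group without saying which libraries share animals, so the p-values measure the spread between these libraries.

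ZnT8 loads zinc into the insulin granules of beta cells, where insulin is stored as crystals with zinc, and autoantibodies to it occur in type 1 diabetes. IL-1b and TNF-a act mainly through the transcription factor NF-kB, and IFN-g acts through the kinases JAK1 and JAK2 on STAT factors. In rodent beta cells the combination is known to induce nitric oxide synthesis and chemokines, to lower beta cell identity genes and to favour cell death.

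Levels are given as CPM, the field's usual counts scaled to library size, with TMM factors, for replicates 1, 2 and 3 in that order within each group. Fold changes are treated over untreated, on the log2 scale, with a standard error (SE). The SE is the size of the log2 fold change divided by the square root of the F statistic of edgeR's test. It is not a separate estimate of error. For genes with few untreated reads it can be too small, and the counting interval of Slc6a14 below is wider. The targeted gene was read first. Slc30a8 stood at 47.9, 55.9 and 43.96 CPM untreated and 20.9, 23.2 and 20 CPM after cytokines. Reads remained in all 6 knockout libraries, and the groups did not overlap (log2 fold change -1.21 ± 0.20 SE, edgeR adjusted p = 0.000343). The untreated mean was 115.6 CPM in wild-type, 110.9 CPM in heterozygous and 49.2 CPM in knockout islets. The labels used here do not give the deleted part of the gene, so reads that fall outside it are no check of the genotype.

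The 6 libraries held 22990164 to 29651472 reads in genes, with 1.18% to 1.53% of them from mitochondrial genes. Islet hormones were abundant, since the 12 beta cell markers summed to 193500 to 224200 CPM of total reads untreated and 164900 to 198200 after cytokines. Untreated replicate 3 stood apart from the other two untreated libraries in immune and stromal markers. Its lymphocyte marker sum was 26.8 CPM against 3.49 and 2.53, and the treated libraries lay at 1.52 to 2.11. Its macrophage sum was 444 CPM against 160 and 162, with treated libraries at 160 to 190. Its pericyte and stellate sum was 4908 CPM against 2193 and 2073, with treated libraries at 808 to 2482. Every list below whose count moved over 1.5 times without this library is given both ways, and its part in the other results was not tested. In bulk RNA, fewer cells of a type and less RNA per cell cannot be told apart.

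**Figure D1:**
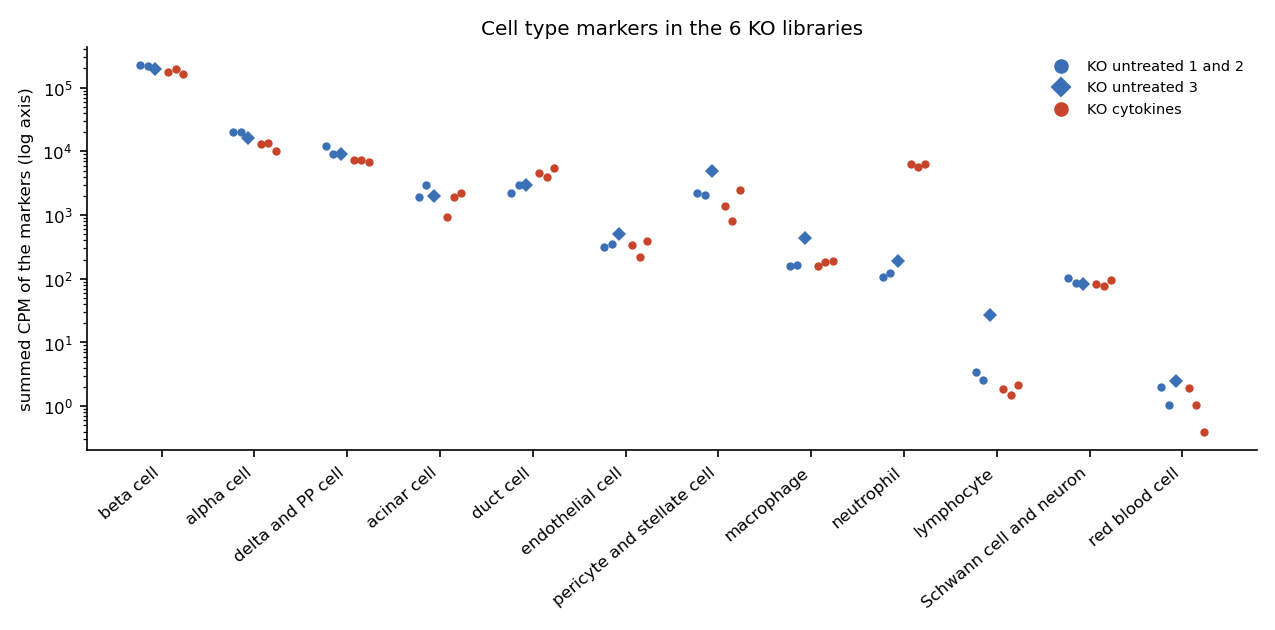
Summed CPM of total reads (log axis) of cell type marker lists in each of the 6 knockout libraries, untreated and cytokine-treated. Untreated replicate 3 lies above the other libraries for lymphocyte and macrophage markers, and the neutrophil list rises from at most 191 to at least 5783 CPM through a few of its members.

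After cytokines, 2683 genes rose and 2821 fell at an adjusted p below 0.05 in edgeR's quasi-likelihood test. These are 15.3% and 16% of the genes tested, and the median log2 fold change over all genes was -0.03. Together 31.3% of genes were called, the share beside which each list count below is to be read. The 3 treated libraries did not overlap the 3 untreated ones for 42.6% of genes, called or not. Among called genes, 738 rose and 712 fell at least 2-fold, which is 4.2% and 4.05% of the genes tested. The larger changes were mostly increases: 88 genes rose at least 16-fold and 8 fell that far. Of 14751 protein-coding genes 34.2% were called, against 20.3% of 1787 long noncoding or unclassified RNA genes.

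The largest increases were in acute-phase, antimicrobial and iron-binding genes. Orm1, the plasma acute-phase protein orosomucoid, was at 0.0379, 0.0406 and 0.0328 CPM untreated and 44.8, 36.8 and 52.3 CPM after cytokines. With 3 reads in all untreated libraries together, its ratio was 1220 (95% interval 418 to 5940, Clopper-Pearson, counting error only), and orosomucoid genes are near copies among which reads may be split. Slc6a14, a plasma membrane importer of neutral and cationic amino acids, lay at 0, 0.0812 and 0.0328 CPM untreated and 40.2, 44.1 and 44.3 CPM after cytokines, a ratio of 1160 (397 to 5630) from 3 untreated reads. Both genes were nearly silent in every untreated library and moderately abundant in every treated one (log2 fold change 10.01 ± 0.42 SE, edgeR adjusted p = 4.26e-10 for Slc6a14). Ltf, the iron-binding protein lactoferrin, stood at 0.0758, 0 and 0.164 CPM untreated and 57.5, 48.98 and 65.8 CPM after cytokines. S100a8 and S100a9 encode the paired subunits of calprotectin, which withholds metal ions from microbes. S100a8 was at 0.379, 0.325 and 0.361 CPM untreated and 197, 200.3 and 178 CPM after cytokines. S100a9 lay at 1.21, 0.649 and 1.21 CPM untreated and 529.5, 508 and 426 CPM after cytokines. For both, all treated libraries lay far above all untreated ones (log2 fold change 8.87 ± 1.00 SE, edgeR adjusted p = 1.49e-05 for S100a9). Genes named as the largest changes were taken only where the groups did not overlap, so their separation was set by the choice. Steap4, a metalloreductase, stood at 0.607, 0.649 and 2.06 CPM untreated and 403, 332.6 and 408 CPM after cytokines, and Saa3, a serum amyloid A protein, at 0.152, 0.122 and 0.262 CPM untreated and 57.8, 55.4 and 45.9 CPM after cytokines. Vnn3, a pantetheinase, was at 0.265, 0.0812 and 0.131 CPM untreated and 38.8, 45.4 and 29.5 CPM after cytokines (log2 fold change 7.85 ± 0.41 SE, edgeR adjusted p = 5.42e-09).

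Lcn2, the siderophore-binding protein lipocalin 2, became one of the most abundant transcripts of the treated islets. It lay at 93.1, 106 and 115 CPM untreated and 5470, 5137 and 5273 CPM after cytokines (log2 fold change 5.66 ± 0.46 SE, edgeR adjusted p = 6.45e-07). The gene lies on chromosome 2 at 32384633-32388252 of GRCm38. Hamp, the iron-regulatory hormone hepcidin, stood at 0.607, 0.203 and 0.393 CPM untreated and 52.9, 46.3 and 50.9 CPM after cytokines. Chil1, a chitinase-like protein, was at 0.379, 0.446 and 0.393 CPM untreated and 29.5, 28.7 and 31.3 CPM after cytokines, and Pigr, which carries IgA across epithelia, at 12.2, 11.7 and 9.08 CPM untreated and 124, 120.3 and 91.8 CPM after cytokines (log2 fold change 3.35 ± 0.18 SE, edgeR adjusted p = 5.42e-09). Over the acute-phase and antimicrobial list, 27 of 33 tested members rose and 0 fell, with a median log2 fold change of 4.97 against -0.03 over all genes. Leaving out untreated replicate 1 made 1 member fall. The fibrinogen chain genes, whose products form clots, rose as well: Fgb lay at 16.1, 3.003 and 15.1 CPM untreated and 297, 256 and 525 CPM after cytokines, and Fga and Fgg had log2 fold changes of 5.93 and 3.73. Saa1 and Saa2, near-identical copies whose reads may be split, had 0 reads in the untreated libraries, and Saa2 was at least 29.8-fold higher, taking 3 reads over the untreated group as the floor. Of 23 iron-handling genes 12 rose and 2 fell. These included Slc11a2, the iron importer DMT1, at 42.8, 41.03 and 41.4 CPM untreated and 126, 125 and 114 CPM after cytokines, and the ferritin heavy chain Fth1 (log2 fold change 1.05 ± 0.10 SE).

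**Figure D2:**
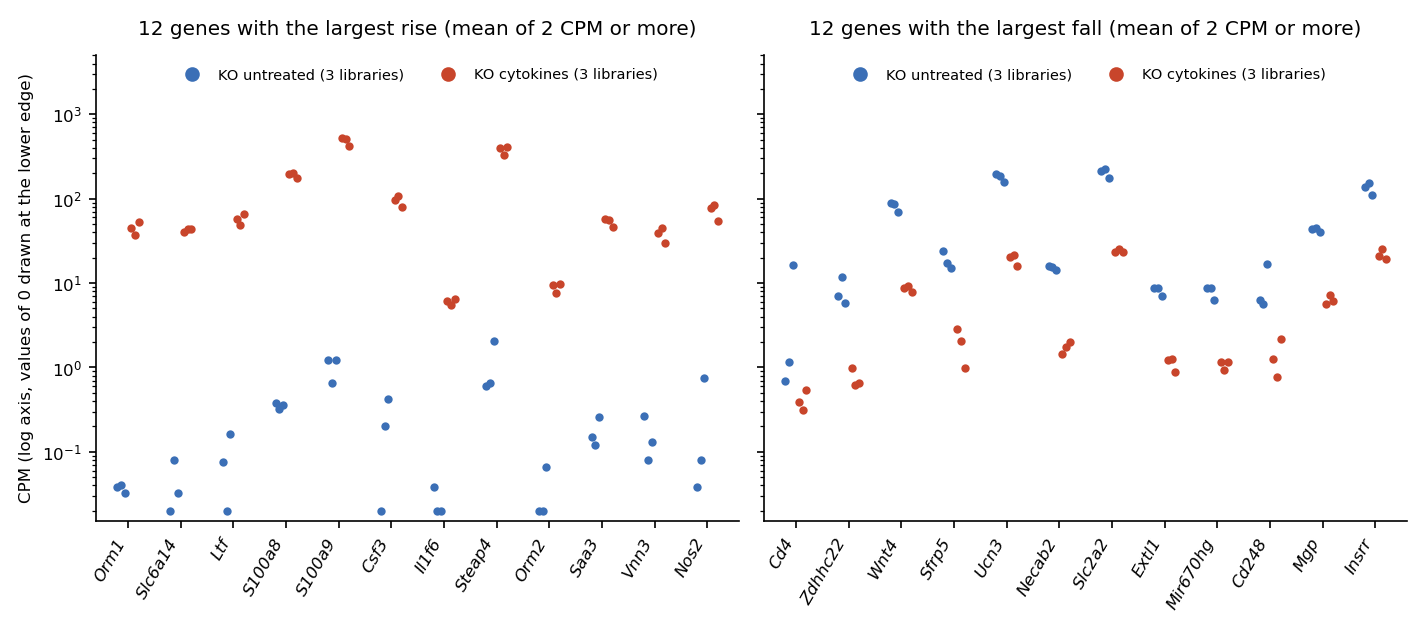
CPM (log axis, values of 0 drawn at the lower edge) in each knockout library of the 12 genes that rose most and the 12 that fell most by log2 fold change, among called genes with a mean of at least 2 CPM over the 6 libraries, groups that did not overlap and no placeholder symbol. The 3 treated libraries lie apart from the untreated ones for every gene, as the choice required. The untreated libraries of Cd4 spread from 0.683 to 16.3 CPM.

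Several of these genes are also used as neutrophil markers. The neutrophil list summed to 107 to 191 CPM untreated and 5783 to 6302 CPM treated, and 6 of its 9 tested members rose while 1, Csf3r, fell. Lcn2, S100a8, S100a9 and Ltf made up most of the rise. The defining markers Ly6g, Elane, Mpo, Ngp, Retnlg and Cxcr2 had at most 5 reads in any knockout library, and Csf3r, the receptor for G-CSF, stood at 0.91, 0.527 and 1.38 CPM untreated and 0.423, 0.314 and 0.154 CPM after cytokines. Its call was lost without untreated replicate 3, where 7 list members rose and 0 fell. Camp, the antimicrobial peptide cathelicidin of neutrophil granules, rested on 1 untreated and 35 treated reads. The macrophage sum lay at 160 to 190 CPM in the treated libraries and at 160, 162 and 444 CPM in the untreated ones.

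Among the receptors and kinases of the added cytokines, 11 of 26 rose and 1 fell, with a median of 0.20. The IL-1 receptor Il1r1 was abundant in both groups, at 551, 577 and 584 CPM untreated and 535, 568 and 537 CPM after cytokines (log2 fold change -0.06 ± 0.06 SE, edgeR adjusted p = 0.477). Ifngr2, the second chain of the IFN-g receptor, was at 23.6, 25.2 and 28.8 CPM untreated and 74.6, 75.98 and 71.7 CPM after cytokines. The groups lay far apart for Ifngr2 (log2 fold change 1.52 ± 0.10 SE, edgeR adjusted p = 2.18e-08), whereas the ligand-binding chain Ifngr1 was not called (log2 fold change 0.19 ± 0.26 SE, edgeR adjusted p = 0.637). Irak3, an inhibitor of IL-1 receptor signalling, lay at 4.25, 4.14 and 5.54 CPM untreated and 27.97, 26.2 and 28.1 CPM after cytokines (log2 fold change 2.56 ± 0.13 SE, edgeR adjusted p = 1.3e-09). The adaptor Myd88 rose too (log2 fold change 0.74 ± 0.09 SE), as did the TNF receptor Tnfrsf1a (log2 fold change 0.77 ± 0.11 SE). The single lower call was lost under 11 of the 14 alternatives, among them leaving out untreated replicate 1 or 2 or any treated library.

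In the NF-kB group 17 of 22 members rose and 0 fell, with a median of 0.99. Nfkbia, the inhibitor IkBa that NF-kB itself induces, stood at 22.9, 23.8 and 34.6 CPM untreated and 194, 174 and 164 CPM after cytokines (log2 fold change 2.71 ± 0.15 SE, edgeR adjusted p = 6.88e-09). Nfkbiz, an atypical nuclear IkB protein, was at 35.2, 41.7 and 39.1 CPM untreated and 171, 181 and 186 CPM after cytokines, and Bcl3, another, at 32.6, 28.6 and 41.6 CPM untreated and 185, 186 and 179.5 CPM after cytokines. All 3 genes lay higher in every treated library than in any untreated one, by a wide margin. Tnfaip3, the ubiquitin-editing inhibitor A20, lay at 6.56, 8.4 and 16.5 CPM untreated and 66.4, 56.5 and 65 CPM after cytokines. Of the subunits, Nfkb2 (log2 fold change 1.38 ± 0.14 SE) and Relb (log2 fold change 1.38 ± 0.21 SE) rose. For Relb, Tnfaip3 and Nfkbia, untreated replicate 3 was the highest untreated library, still below all treated ones. Without treated replicate 2, and with limma, 1 list member fell.

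Promoters of genes in this group and of the chemokines are shown because Cxcl1, Cxcl2 and Cxcl3 are neighbours on chromosome 5 that rose together, and Nfkbia, Irf1, Icam1 and Fas are textbook targets of the signals added. Each line gives the 150 bases before the start of transcription from RefSeq's GRCm38.p6 annotation, 5′ to 3′ on the gene's strand. Capitals mark matches on either strand to GGGANNNTC (kappa-B like), TTCNNNGAA (GAS like, the IFN-g activated site) or GAAANNGAA (ISRE like, the interferon response element), and overlapping matches are joined.
Cxcl1 (chr5:90891095-90891244, plus strand): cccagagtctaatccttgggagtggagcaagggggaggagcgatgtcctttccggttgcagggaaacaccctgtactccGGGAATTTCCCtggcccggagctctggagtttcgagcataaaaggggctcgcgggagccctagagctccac
Cxcl2 (chr5:90903749-90903898, plus strand): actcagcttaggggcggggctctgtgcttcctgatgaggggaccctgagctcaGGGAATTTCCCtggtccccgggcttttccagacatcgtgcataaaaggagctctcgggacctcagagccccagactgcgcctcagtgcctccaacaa
Cxcl3 (chr5:90785951-90786100, plus strand): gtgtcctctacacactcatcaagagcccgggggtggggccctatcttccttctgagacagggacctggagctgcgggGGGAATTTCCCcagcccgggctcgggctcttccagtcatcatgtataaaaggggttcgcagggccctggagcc
Nfkbia (chr12:55492648-55492797, minus strand): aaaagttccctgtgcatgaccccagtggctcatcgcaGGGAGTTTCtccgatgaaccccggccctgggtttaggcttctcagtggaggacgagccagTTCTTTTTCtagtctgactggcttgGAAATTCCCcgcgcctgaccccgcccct
Irf1 (chr11:53769864-53770013, plus strand): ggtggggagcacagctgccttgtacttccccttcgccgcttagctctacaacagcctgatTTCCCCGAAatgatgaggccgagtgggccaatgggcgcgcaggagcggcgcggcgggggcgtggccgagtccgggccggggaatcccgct
Icam1 (chr9:21015790-21015939, plus strand): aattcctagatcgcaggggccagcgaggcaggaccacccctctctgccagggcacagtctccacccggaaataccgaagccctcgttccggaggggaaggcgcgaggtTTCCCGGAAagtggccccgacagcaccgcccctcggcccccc
Fas (chr19:34290509-34290658, plus strand): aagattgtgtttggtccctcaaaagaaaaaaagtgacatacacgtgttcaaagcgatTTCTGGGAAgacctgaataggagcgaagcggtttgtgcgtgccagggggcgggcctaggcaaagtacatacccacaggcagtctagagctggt
The 3 chemokine promoters share the letters GGGAATTTCCC, in which a forward and a reverse kappa-B-like match overlap, and Nfkbia holds kappa-B-like matches and an ISRE-like one. Irf1, Icam1 and Fas hold a GAS-like match. The promoters shown are a selection, and each holds a match. No match was recorded for Nfkbiz, Bcl3, Ccl2 or Ccl20, which lack either the letters or a promoter sequence in the set used. Over 12285 tested genes with a promoter of 300 bases in the table, 15.9% held a kappa-B-like, 6.85% a GAS-like and 7.09% an ISRE-like match. Promoters were matched for only 69.8% of tested genes and 68% of those that rose at least 2-fold. With this incomplete cover, shares of called and other genes are not compared here. A match describes letters only and is no evidence of binding.

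Chemokines attract leukocytes to a tissue. Cxcl1, a neutrophil attractant, stood at 1.33, 1.26 and 2.23 CPM untreated and 307, 313 and 312 CPM after cytokines (log2 fold change 7.57 ± 0.53 SE, edgeR adjusted p = 1.68e-07). Cxcl2 was at 0.0758, 0.243 and 0.459 CPM untreated and 20.1, 15.7 and 17.4 CPM after cytokines and Cxcl3 at 0.607, 0.527 and 1.15 CPM untreated and 43.9, 30.3 and 43.04 CPM after cytokines. All 3 treated libraries lay above all untreated ones for the whole trio. The monocyte attractant Ccl2 lay at 7.51, 5.24 and 9.64 CPM untreated and 121, 91.6 and 133 CPM after cytokines (log2 fold change 3.94 ± 0.40 SE, edgeR adjusted p = 6.26e-06). Ccl28, an epithelial chemokine, stood at 17.3, 12.99 and 15.3 CPM untreated and 252, 225 and 255 CPM after cytokines, and Cxcl5, which also draws neutrophils, at 0.341, 0.406 and 2.82 CPM untreated and 92.2, 66.2 and 112 CPM after cytokines. Ccl20 rose from 1 untreated read to 96 treated reads. The T cell attractant Cxcl10, a classical IFN-g target, was at 1.06, 0.73 and 3.57 CPM untreated and 4.87, 3.41 and 4.88 CPM after cytokines, and its difference was not called (log2 fold change 1.27 ± 0.56 SE, edgeR adjusted p = 0.101). Cxcl10 was called higher by limma and without untreated replicate 3 (log2 fold change 2.28 ± 0.56 SE, edgeR adjusted p = 0.00723 without that library). Over the list 10 of 29 members rose and 2 fell, with a median of 0.68. Without untreated replicate 3, 17 rose and 0 fell and the median was 2.18. The 2 lower calls were lost, in whole or in part, without any one treated library too. One of them, Ccl24, an eosinophil attractant made by macrophages, lay at 0.0379, 0 and 13.1 CPM untreated and 0.106, 0.0449 and 0.154 CPM after cytokines, and Ccl22, which was not called, at 0.19, 0.0406 and 33.4 CPM untreated and 1.62, 0.493 and 2.61 CPM after cytokines. The high untreated value of both came from replicate 3 alone. Without that library the log2 fold change of Ccl24 was 2.16 in place of -5.35.

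Among cytokine and colony stimulating factor genes, 12 of 27 rose and 0 fell, with a median of 0.73. Csf3, the neutrophil growth factor G-CSF, stood at 0, 0.203 and 0.426 CPM untreated and 97.5, 107 and 79.5 CPM after cytokines (log2 fold change 8.72 ± 0.34 SE, edgeR adjusted p = 4.26e-10). Il6, an acute-phase inducer, was at 4.36, 5.64 and 9.77 CPM untreated and 93.3, 54.6 and 117 CPM after cytokines. Both lay high in every treated library, with the lowest Il6 value in treated replicate 2. Il1f6, now named IL-36 alpha, rose from 1 to 467 reads, a ratio of 496 (88.7 to 19600, counting error only). Tnf lay at 0.607, 0.487 and 1.28 CPM untreated and 5.79, 5.16 and 4.68 CPM after cytokines, and Il1b at 1.97, 1.46 and 3.25 CPM untreated and 5.08, 5.65 and 8.75 CPM after cytokines, so mRNA of these 2 added cytokines rose in the islets too (log2 fold change 2.69 ± 0.32 SE for Tnf and log2 fold change 1.53 ± 0.26 SE for Il1b). Tnfsf10, the death ligand TRAIL, stood at 7.05, 6.13 and 7.61 CPM untreated and 20.03, 22.8 and 14.4 CPM after cytokines (log2 fold change 1.46 ± 0.15 SE, edgeR adjusted p = 2.48e-06). Without treated replicate 3, and with limma, 1 member of the list fell.

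Interferon signals are carried by STAT and IRF factors and restrained by SOCS proteins. Over the STAT, IRF and SOCS genes 9 of 23 rose and 4 fell, with a median of 0.11. Irf1, a factor that IFN-g induces, lay at 42.5, 34.5 and 43.4 CPM untreated and 78.7, 72.6 and 63.1 CPM after cytokines (log2 fold change 0.83 ± 0.09 SE, edgeR adjusted p = 5.17e-06). Socs3, the feedback inhibitor of IL-6 type signals, stood at 55.2, 52.96 and 73.7 CPM untreated and 171, 165 and 195 CPM after cytokines, and Socs1, which restrains IFN-g signalling, at 2.43, 2.48 and 6.16 CPM untreated and 15.1, 11.5 and 17.1 CPM after cytokines. Stat3 rose modestly (log2 fold change 0.54 ± 0.05 SE), while Stat5b (log2 fold change -0.64 ± 0.07 SE) and Stat5a (log2 fold change -0.53 ± 0.08 SE) fell. Irf7 was not called (log2 fold change 0.33 ± 0.48 SE, edgeR adjusted p = 0.657).

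Interferon-induced GTPases defend cells against intracellular microbes, and 10 of 20 rose and 0 fell, with a median of 1.36. Gbp6 was at 0.645, 0.73 and 0.918 CPM untreated and 10.2, 10.8 and 7.64 CPM after cytokines, Gbp4 at 0.721, 0.933 and 2.75 CPM untreated and 13.2, 11.2 and 10.3 CPM after cytokines and Gbp9 at 4.66, 3.65 and 7.9 CPM untreated and 25.2, 22.3 and 21.2 CPM after cytokines. These are close paralogs on chromosome 5, and reads may be split among them. Gbp5 lay at 0.417, 0.406 and 3.77 CPM untreated and 11.2, 11.7 and 9.45 CPM after cytokines (log2 fold change 2.76 ± 0.59 SE, edgeR adjusted p = 0.00277), and Gbp2, at 2.84, 1.79 and 13.4 CPM untreated and 15.9, 13.6 and 15.7 CPM after cytokines, was not called (log2 fold change 1.31 ± 0.58 SE, edgeR adjusted p = 0.105). Gbp2 was called higher by limma and by an 18-library fit that paired same-numbered libraries. It was also called without untreated replicate 3 (log2 fold change 2.70 ± 0.45 SE, edgeR adjusted p = 0.000574). Untreated replicate 3 was the highest untreated library for each of these 5 genes, and without it 16 of 20 rose and the median was 2.49. Of 41 antiviral interferon-stimulated genes, 13 rose and 4 fell, with a median of 0.26. The antiviral gene of smallest p was Ifitm2, a membrane protein that blocks virus entry, at 15.2, 15.8 and 21.01 CPM untreated and 60.4, 56.3 and 57.6 CPM after cytokines (log2 fold change 1.74 ± 0.15 SE, edgeR adjusted p = 5.73e-07). Without untreated replicate 2, 8 rose. The lower calls, among them Samhd1 (log2 fold change -0.65 ± 0.11 SE), numbered 1 without untreated replicate 1 and 2 without treated replicate 1 or 3.

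MHC class I shows peptides from inside the cell to T cells. Of 25 tested class I, immunoproteasome and peptide-loading genes 14 rose and 0 fell, with a median of 0.53. Tapbp, the loading factor tapasin, stood at 353, 307 and 311 CPM untreated and 692, 719 and 583 CPM after cytokines (log2 fold change 1.04 ± 0.10 SE, edgeR adjusted p = 5.87e-07), and Psme2, a proteasome activator subunit, at 84.9, 69.3 and 76.9 CPM untreated and 167, 167 and 136 CPM after cytokines. Psmb10, an immunoproteasome subunit, was at 28.7, 22.9 and 25.2 CPM untreated and 63.2, 57.2 and 48.9 CPM after cytokines, and H2-D1, a classical class I chain with close paralogs, at 528, 514 and 607 CPM untreated and 739, 803 and 734 CPM after cytokines (log2 fold change 0.46 ± 0.12 SE, edgeR adjusted p = 0.00782). The light chain B2m was not called, and untreated replicate 3 at 262.5 CPM lay within the treated range (log2 fold change 0.32 ± 0.26 SE, edgeR adjusted p = 0.38). Limma called B2m higher. Without untreated replicate 1, 1 member fell. Of 31 constitutive proteasome subunits 25 rose and 0 fell, with a median of 0.24. Psma6 had the smallest p, at 87.1, 81.6 and 83.7 CPM untreated and 132, 129 and 119.9 CPM after cytokines. Of 9 class II genes only Ctsl, a lysosomal protease on the list, rose, at 814, 585 and 737 CPM untreated and 3449, 3527 and 3346 CPM after cytokines (log2 fold change 2.27 ± 0.16 SE, edgeR adjusted p = 4.82e-08). The 8 others were not called, and Cd74 lay at 20.7, 22.9 and 53.7 CPM untreated and 28.1, 34.1 and 31.4 CPM after cytokines. The class II median was -0.42, and 0.27 without untreated replicate 3.

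Nos2, the inducible nitric oxide synthase, was among the largest increases. It stood at 0.0379, 0.0812 and 0.754 CPM untreated and 76.9, 85.3 and 55.2 CPM after cytokines (log2 fold change 7.82 ± 0.60 SE, edgeR adjusted p = 4.21e-07). Genes that supply its substrate and cofactor were mixed. Gch1, which starts synthesis of the cofactor tetrahydrobiopterin, was at 308, 288 and 254 CPM untreated and 448, 511 and 393 CPM after cytokines, and Pts, the next enzyme, rose as well (log2 fold change 0.80 ± 0.11 SE). Ass1, which regenerates arginine from citrulline, lay at 48.7, 41.3 and 49 CPM untreated and 109.9, 74.7 and 140.3 CPM after cytokines (log2 fold change 1.23 ± 0.23 SE, edgeR adjusted p = 0.000932). The cationic amino acid transporter Slc7a1 stood at 153, 152 and 145 CPM untreated and 78.6, 74.7 and 80.2 CPM after cytokines (log2 fold change -0.95 ± 0.06 SE, edgeR adjusted p = 1.43e-08) and Slc7a2, of the same family, had a log2 fold change of -0.90, whereas Slc6a14, which also imports cationic amino acids, rose. Odc1, which turns ornithine to polyamines, was at 158, 164 and 173 CPM untreated and 421, 480.3 and 396 CPM after cytokines, and Gucy1b1, a subunit of the nitric oxide receptor guanylate cyclase, fell (log2 fold change -0.86 ± 0.12 SE). In all 8 of 20 rose and 5 fell, with a median of 0.05.

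Of 32 antioxidant, thioredoxin and glutathione genes 14 rose and 0 fell, with a median of 0.25. Sod2, the mitochondrial superoxide dismutase, lay at 98.9, 98.2 and 94.4 CPM untreated and 739, 755 and 706 CPM after cytokines. It was among the 3 genes of smallest p in the table (log2 fold change 2.92 ± 0.09 SE, edgeR adjusted p = 1.08e-11). Txnip, the thioredoxin inhibitor, stood at 81.9, 85.4 and 81.1 CPM untreated and 177, 163 and 177 CPM after cytokines, and its target Txn1 at 108, 104 and 112 CPM untreated and 203, 194 and 186 CPM after cytokines, so both rose. Prdx1, a peroxide reductase, was at 212, 213 and 226 CPM untreated and 492, 447 and 469.7 CPM after cytokines (log2 fold change 1.11 ± 0.09 SE, edgeR adjusted p = 2.07e-07). Glrx, glutaredoxin, rose too (log2 fold change 1.159 ± 0.10 SE) and so did Gsr, glutathione reductase (log2 fold change 0.65 ± 0.05 SE).

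In other inflammatory groups the share of genes called in either direction was 29.2% for complement, 23.8% for metalloproteinases, 36.8% each for Toll-like receptor and prostaglandin genes and 46.7% for adhesion genes, against 31.3% of all genes. Complement genes numbered 4 higher and 3 lower of 24, with 7 higher without untreated replicate 3. Cfb, a protease of the alternative pathway, lay at 0.986, 0.73 and 1.48 CPM untreated and 39.9, 40.2 and 36.7 CPM after cytokines, and C1ra, of the classical pathway, at 4.97, 4.18 and 6.65 CPM untreated and 67.3, 51.6 and 53.6 CPM after cytokines. C3, the central component, stood at 37.5, 68.3 and 119 CPM untreated and 302, 221 and 366 CPM after cytokines (log2 fold change 1.98 ± 0.48 SE, edgeR adjusted p = 0.0065), with untreated libraries that differed widely from each other. Of 15 adhesion genes 6 rose and 1 fell: Icam1, which holds leukocytes on endothelium, was at 5.95, 8.81 and 21.2 CPM untreated and 135, 111 and 103 CPM after cytokines (log2 fold change 3.26 ± 0.47 SE, edgeR adjusted p = 0.000133), and Cd47, which inhibits phagocytosis, at 199.7, 189.9 and 199 CPM untreated and 434, 458 and 453 CPM after cytokines. Without treated replicate 3, 2 adhesion genes fell. Of 19 prostaglandin genes 7 rose and 0 fell, with 1 lower call without treated replicate 3. Ptgs2, the inducible cyclooxygenase, lay at 30.1, 45.2 and 57.4 CPM untreated and 208, 113 and 255 CPM after cytokines (log2 fold change 2.12 ± 0.40 SE, edgeR adjusted p = 0.00117). Tlr2, a receptor for bacterial lipoproteins, stood at 22.9, 20.2 and 20.98 CPM untreated and 82.9, 81.6 and 66.2 CPM after cytokines (log2 fold change 1.85 ± 0.09 SE, edgeR adjusted p = 8.51e-10), one of 5 of 19 Toll-like receptor genes and adaptors that rose, while 2 fell, 1 of them lost without untreated replicate 3 or any treated library. Of 21 metalloproteinases and inhibitors 5 rose, and 8 without untreated replicate 3. Mmp10 was at 0.796, 1.99 and 1.44 CPM untreated and 52.03, 13.2 and 52.7 CPM after cytokines, with treated replicate 2 lowest, and Mmp3 at 1.18, 1.05 and 9.11 CPM untreated and 66.8, 19.6 and 49.3 CPM after cytokines. Without untreated replicate 1, 1 member of that list fell.

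**Figure D3:**
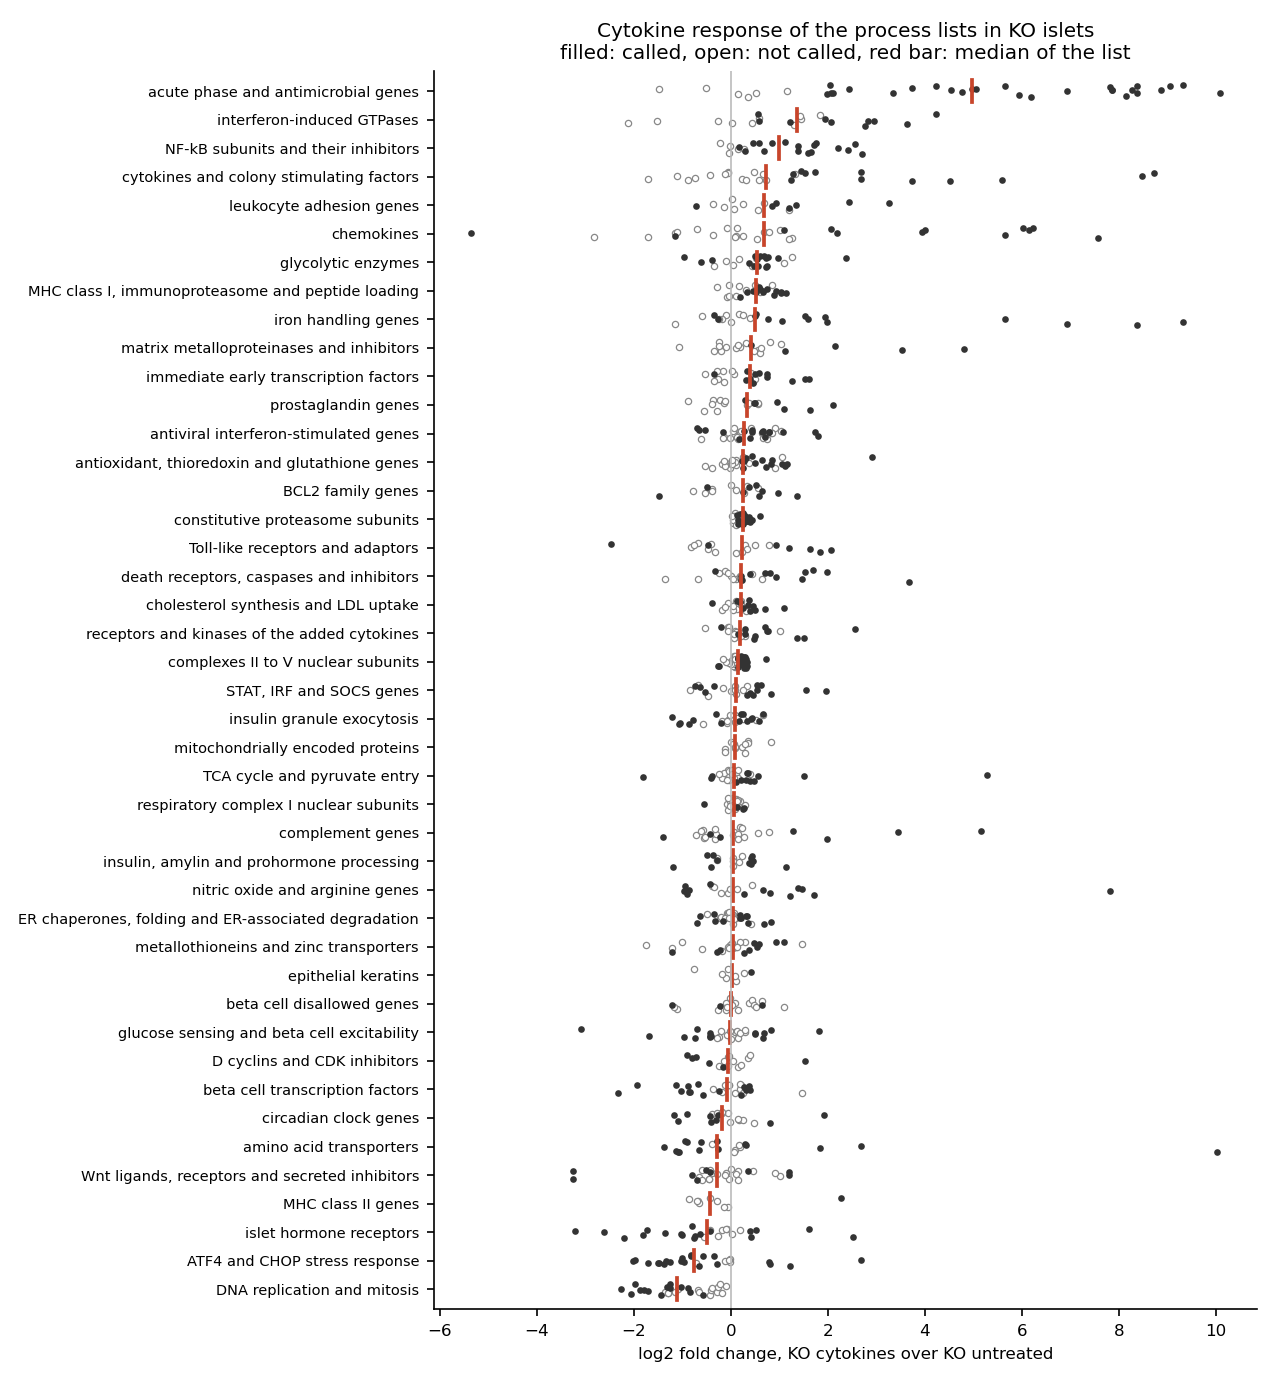
Log2 fold change (x axis, cytokine-treated over untreated knockout islets) of every tested member of each process list (rows). Filled points passed the test, open points did not, and the red bar is the median of the list. The acute-phase list has the highest median, 4.97, and the DNA replication list the lowest, -1.12.

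Of the 12 beta cell markers 7 fell and 1, Iapp, rose, and none rose without untreated replicate 3 or treated replicate 1 or 2. Ins2 lay at 148400, 138000 and 116200 CPM untreated and 110800, 122400 and 96990 CPM after cytokines (log2 fold change -0.29 ± 0.12 SE, edgeR adjusted p = 0.0763), and Ins1 at 62650, 57950 and 52140 CPM untreated and 46220, 53990 and 42400 CPM after cytokines (log2 fold change -0.28 ± 0.11 SE, edgeR adjusted p = 0.0664). Neither was called, but both were called lower by DESeq2, by limma and without untreated replicate 3 or treated replicate 2. Iapp, the hormone amylin that is stored with insulin, stood at 18460, 17490 and 15930 CPM untreated and 23810, 25120 and 19930 CPM after cytokines (log2 fold change 0.41 ± 0.12 SE, edgeR adjusted p = 0.0139), a rise lost without untreated replicate 3 or treated replicate 1 or 2. Slc2a2, the glucose transporter GLUT2, was at 213, 226 and 174 CPM untreated and 23.5, 25.2 and 23.6 CPM after cytokines. Ucn3, a peptide of mature beta cells, lay at 197, 185 and 156 CPM untreated and 20.5, 21.8 and 15.8 CPM after cytokines. Mafa, a transcription factor of the insulin gene, stood at 607, 612 and 564 CPM untreated and 112, 137 and 109 CPM after cytokines. These 3 lay far lower in every treated library than in any untreated one (log2 fold change -3.08 ± 0.25 SE, edgeR adjusted p = 5.3e-07 for Slc2a2, log2 fold change -2.32 ± 0.23 SE, edgeR adjusted p = 3.67e-06 for Mafa). For Slc2a2 and Ucn3 the rule that named them required groups that did not overlap. Ero1lb, an oxidase for disulfide bonds in proinsulin, was at 697, 690.3 and 659 CPM untreated and 278, 325 and 291 CPM after cytokines. G6pc2, the islet glucose-6-phosphatase, was not called, at 1781, 1720 and 1611 CPM untreated and 1858, 2047 and 1661 CPM after cytokines (log2 fold change 0.12 ± 0.11 SE, edgeR adjusted p = 0.427).

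Beta cell transcription factors were divided, with 5 of 26 higher, 10 lower and a median of -0.08. Nkx6-1 lay at 438, 459.9 and 379.6 CPM untreated and 200, 212 and 174 CPM after cytokines and Pdx1 at 192, 182 and 166 CPM untreated and 99.01, 112 and 80.6 CPM after cytokines. For both, no treated library reached the untreated range (log2 fold change -0.89 ± 0.15 SE, edgeR adjusted p = 0.000324 for Pdx1). Mlxipl, the glucose-responsive factor ChREBP, stood at 95.1, 106 and 76.6 CPM untreated and 27.5, 24.8 and 20.9 CPM after cytokines (log2 fold change -1.92 ± 0.24 SE, edgeR adjusted p = 3.24e-05). Foxo1 fell (log2 fold change -0.67 ± 0.08 SE), while Neurod1, another insulin gene activator, was at 126, 136 and 118 CPM untreated and 165, 175 and 159 CPM after cytokines (log2 fold change 0.39 ± 0.10 SE, edgeR adjusted p = 0.00581) and Glis3 rose (log2 fold change 0.27 ± 0.05 SE).

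Among genes of glucose sensing and excitability 6 of 27 rose and 9 fell, with a median of -0.02. The potassium channel subunit Kcnj11 was not called (log2 fold change -0.23 ± 0.12 SE, edgeR adjusted p = 0.17), and Abcc8, its sulfonylurea receptor partner, stood at 744, 746 and 646 CPM untreated and 557, 569 and 471 CPM after cytokines (log2 fold change -0.42 ± 0.13 SE, edgeR adjusted p = 0.021), a call lost without untreated replicate 1 or 2 or treated replicate 3. Kcnk16, the potassium channel TALK-1, was at 191, 132 and 129.7 CPM untreated and 54.04, 45.98 and 40.2 CPM after cytokines (log2 fold change -1.69 ± 0.17 SE, edgeR adjusted p = 2.89e-06). The calcium pump Atp2a2 lay at 1439, 1461 and 1291 CPM untreated and 826, 885 and 793 CPM after cytokines and the ER calcium channel Itpr1 at 83.5, 83.6 and 72.3 CPM untreated and 42.1, 43.5 and 37.9 CPM after cytokines. The voltage-gated calcium channel Cacna1c went the other way, at 102, 102 and 101 CPM untreated and 166, 156 and 164 CPM after cytokines (log2 fold change 0.67 ± 0.08 SE, edgeR adjusted p = 4.62e-06).

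Of 26 receptors and peptides through which hormones act on islets 13 fell and 5 rose, with a median of -0.49. Prlr, the prolactin receptor, stood at 287, 309 and 273 CPM untreated and 63.5, 70.8 and 55.6 CPM after cytokines (log2 fold change -2.19 ± 0.16 SE, edgeR adjusted p = 1.56e-07). Insrr, a receptor related to the insulin receptor, was at 138, 154 and 111 CPM untreated and 20.7, 25.2 and 19.4 CPM after cytokines, and Casr, the calcium-sensing receptor, at 76.03, 73.5 and 59.2 CPM untreated and 22.6, 22.6 and 17.6 CPM after cytokines. Glp1r, the incretin receptor that GLP-1 drugs act on, lay at 463, 410 and 371 CPM untreated and 238, 258 and 222 CPM after cytokines (log2 fold change -0.79 ± 0.14 SE, edgeR adjusted p = 0.000616). Gipr (log2 fold change -1.01 ± 0.21 SE), Gcgr (log2 fold change -1.35 ± 0.18 SE) and Gpr119 (log2 fold change -1.81 ± 0.26 SE) fell too. Adora1, an adenosine receptor, rose in all treated libraries, at 25.9, 27.1 and 22.5 CPM untreated and 76.4, 82.04 and 73.99 CPM after cytokines (log2 fold change 1.62 ± 0.07 SE, edgeR adjusted p = 2.98e-10). The higher calls numbered 3 without untreated replicate 2 or 3 or treated replicate 1 or 3.

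Prohormone processing and granule genes were split. Chgb, a granin of secretory granules, stood at 7181, 5707 and 6152 CPM untreated and 14040, 14370 and 13290 CPM after cytokines (log2 fold change 1.13 ± 0.11 SE, edgeR adjusted p = 7.61e-07), and its relative Chga at 7524, 7092 and 6307 CPM untreated and 4929, 5500 and 4406 CPM after cytokines (log2 fold change -0.50 ± 0.12 SE, edgeR adjusted p = 0.00484), in opposite directions. Pcsk1, the convertase of proinsulin, rose (log2 fold change 0.37 ± 0.11 SE), a call lost without untreated replicate 1 or treated replicate 2. Over that list of 18 genes 6 rose and 5 fell, and 3 fell without untreated replicate 1 or 2 or treated replicate 1 or 3. Of 28 exocytosis genes 8 rose and 7 fell. Cadps, a priming factor of dense-core vesicles, was at 81, 83.6 and 71.2 CPM untreated and 38.02, 40.7 and 34.4 CPM after cytokines, and Rab3a, a granule GTPase, at 85.6, 77.5 and 73.7 CPM untreated and 42.2, 48.3 and 39.2 CPM after cytokines (log2 fold change -0.87 ± 0.13 SE, edgeR adjusted p = 0.000151). Stx1a, a membrane SNARE, lay at 15.7, 15.1 and 14.1 CPM untreated and 24.7, 22.5 and 24 CPM after cytokines (log2 fold change 0.67 ± 0.07 SE, edgeR adjusted p = 1.24e-06). Genes normally kept off in beta cells (disallowed genes) showed 1 higher and 2 lower calls of 20, or 15% against 31.3% of all genes. The calls were 3 higher and 1 lower without untreated replicate 3, 3 higher without treated replicate 2, and 1 lower without treated replicate 3.

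**Figure D4:**
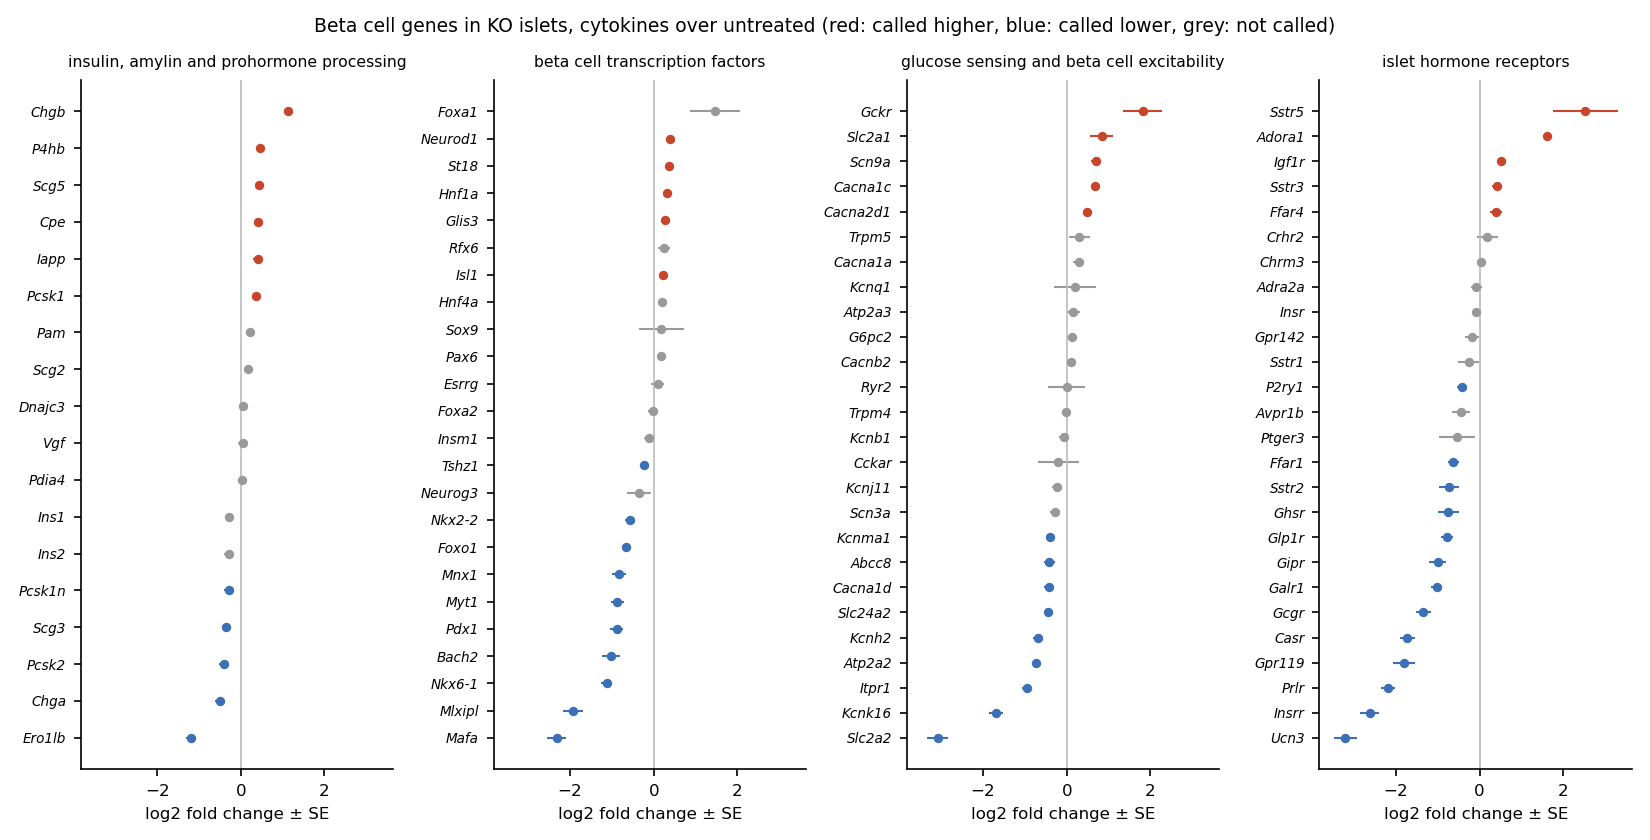
Log2 fold change ± SE (x axis, cytokine-treated over untreated knockout islets) of tested members of 4 beta cell lists. Red points were called higher, blue points lower and grey points not called. Ins1 and Ins2 are grey, Iapp is red, and Slc2a2, Ucn3 and Mafa lie lowest in their lists.

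Markers of the other islet cells were read next. Gcg, the alpha cell hormone glucagon, stood at 18640, 17770 and 13580 CPM untreated and 11860, 12550 and 8354 CPM after cytokines (log2 fold change -0.61 ± 0.19 SE, edgeR adjusted p = 0.0221), a call lost without untreated replicate 1 or 2 or treated replicate 3. Ttr, transthyretin, which alpha cells express, was at 403, 386 and 298 CPM untreated and 139, 118 and 78.98 CPM after cytokines (log2 fold change -1.70 ± 0.23 SE, edgeR adjusted p = 6.63e-05), and 7 of 14 alpha markers fell while the factors Irx1 and Irx2 were not called. Sst lay at 7659, 6841 and 5520 CPM untreated and 4936, 5486 and 4021 CPM after cytokines (log2 fold change -0.47 ± 0.16 SE, edgeR adjusted p = 0.0401), a call lost without untreated replicate 1 or 2 or treated replicate 1 or 3, and Ppy at 1957, 432 and 1263 CPM untreated and 1039, 615 and 1485 CPM after cytokines, with untreated libraries spread widely. Pyy fell (log2 fold change -0.76 ± 0.18 SE). Of 9 delta and PP markers 4 fell, and 1 without untreated replicate 2 or treated replicate 3, 2 without untreated or treated replicate 1. Of 26 acinar markers 0 were called by the main edgeR fit, with 1 at an unadjusted p below 0.05. Their sum ran from 1953 to 2966 CPM untreated and from 945 to 2214 treated. DESeq2 called 0 of them. Limma with sample quality weights called 17, all lower, and of the 6 libraries it weighted treated replicate 1 most, at 3.006, which is the library with the sum of 945 CPM. The other treated sums were 1952 and 2214 CPM. The part of the weights in these 17 calls was not tested. Of 14 duct markers 4 rose and 1 fell, or 35.7% called, close to the 31.3% of all genes. The duct sum ran from 2215 to 2991 CPM untreated and from 4018 to 5418 CPM treated. Most of that came through Spp1, osteopontin, at 568, 1114 and 1180 CPM untreated and 2530, 2184 and 3140 CPM after cytokines. The Spp1 call was lost without any one untreated library or treated replicate 1 or 3. The one lower duct call, Ambp, was lost without untreated replicate 1 or 2 or treated replicate 2 or 3. Krt19, Krt7 and Sox9 were not called. Of 14 endothelial markers 0 were called by the main edgeR fit, with 4 at an unadjusted p below 0.05, and DESeq2 called 2 and limma 1. With same-numbered libraries fitted as pairs, 2 fell over the 18 libraries and 3 over the 6 knockout ones. Without untreated replicate 1 or treated replicate 3, 2 endothelial markers fell, and 1 without untreated replicate 2. Of 19 pericyte and stellate markers 5 fell and 1 rose, or 31.6% called, the share of all genes being 31.3%. The markers that fell numbered 3 without untreated replicate 3, without treated replicate 2 or without the filter on low counts, 2 with the 6 knockout libraries fitted alone, and 9 without treated replicate 3 or with limma. Mgp, a matrix calcification inhibitor, stood at 43.9, 45.04 and 40.6 CPM untreated and 5.71, 7.18 and 6.18 CPM after cytokines (log2 fold change -2.77 ± 0.29 SE, edgeR adjusted p = 5.32e-06). Of 16 macrophage markers 2 fell and 0 rose, or 12.5% called, below the share of all genes. Without untreated replicate 3, 1 fell and 4 rose. The macrophage markers that fell numbered 4 without untreated replicate 1, 0 without treated replicate 1 and 1 without treated replicate 3. All 3 tested lymphocyte markers fell, and none did without untreated replicate 3 and 1 without treated replicate 2 or 3. Cd4 was one of them, at 0.683, 1.18 and 16.3 CPM untreated and 0.388, 0.314 and 0.537 CPM after cytokines (log2 fold change -3.86 ± 1.04 SE, edgeR adjusted p = 0.0119). Without untreated replicate 3 its log2 fold change was -1.15 and was not called (edgeR adjusted p = 0.168), with the treated libraries still below both remaining untreated ones.

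ATF4 is the factor with which stressed cells raise amino acid synthesis and uptake. Of 26 ATF4 and CHOP genes 17 fell and 4 rose, with a median of -0.77. Atf4 itself was at 486, 495 and 468 CPM untreated and 266, 285 and 266 CPM after cytokines (log2 fold change -0.83 ± 0.06 SE, edgeR adjusted p = 2.97e-08). Phgdh, the first enzyme of serine synthesis, lay at 72.3, 76.3 and 67.2 CPM untreated and 17.4, 19.02 and 17.2 CPM after cytokines (log2 fold change -2.01 ± 0.11 SE, edgeR adjusted p = 1.98e-09). Psat1, the second enzyme, stood at 77.4, 77.5 and 74.7 CPM untreated and 25.9, 22.4 and 21.7 CPM after cytokines, and Psph, the third, at 54.4, 49.5 and 43.4 CPM untreated and 17.2, 19.4 and 15.6 CPM after cytokines. Shmt2, which moves the serine carbon into mitochondrial folate, was at 125, 129.5 and 120 CPM untreated and 47.4, 48.4 and 47.8 CPM after cytokines, and Mthfd2, the next step, at 143, 139 and 129 CPM untreated and 47.5, 52.03 and 47.6 CPM after cytokines. All 5 genes of this serine and folate route were named by smallest p among genes whose groups did not overlap. That each treated library lay below every untreated one was therefore set by the choice. Asns, asparagine synthetase, fell (log2 fold change -1.003 ± 0.09 SE), as did Chac1, a glutathione-degrading enzyme (log2 fold change -1.97 ± 0.13 SE), and Trib3, a pseudokinase target of ATF4 and CHOP (log2 fold change -1.03 ± 0.10 SE). Ddit3, which encodes CHOP, lay at 19.7, 22.03 and 21.5 CPM untreated and 10.3, 9.55 and 12.7 CPM after cytokines (log2 fold change -0.96 ± 0.15 SE, edgeR adjusted p = 0.000118). Cebpb (log2 fold change 1.23 ± 0.08 SE) and the cystine importer Slc7a11, at 18.01, 22.97 and 22.9 CPM untreated and 136, 97.2 and 177 CPM after cytokines, were among the 4 that rose.

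ER folding genes were divided. Of 32 members 8 rose and 5 fell, with a median of 0.04 and 40.6% called against 31.3% of all genes. The chaperone Hspa5 (BiP) stood at 1998, 1864 and 1895 CPM untreated and 1957, 2020 and 1789 CPM after cytokines (log2 fold change 0.00 ± 0.07 SE, edgeR adjusted p = 0.985). Xbp1, a factor of the unfolded protein response, was at 321, 318 and 298 CPM untreated and 499, 517 and 483 CPM after cytokines (log2 fold change 0.68 ± 0.06 SE, edgeR adjusted p = 3.89e-07), while Ern1, the sensor IRE1 that splices its RNA, lay at 264, 297 and 265 CPM untreated and 159.7, 180.4 and 173 CPM after cytokines (log2 fold change -0.69 ± 0.08 SE, edgeR adjusted p = 9.51e-06). Edem1, of ER-associated degradation, rose (log2 fold change 0.83 ± 0.05 SE), and Wfs1, the Wolfram syndrome protein of the beta cell ER, fell (log2 fold change -0.62 ± 0.09 SE). Amino acid transporters gave 5 higher and 10 lower calls of 20. Slc7a5, the large neutral carrier, stood at 396, 375 and 366 CPM untreated and 244, 243 and 233 CPM after cytokines, and Slc1a4, a serine and alanine carrier, at 49.1, 44.7 and 42.3 CPM untreated and 20.7, 21.7 and 22.9 CPM after cytokines (log2 fold change -1.06 ± 0.08 SE, edgeR adjusted p = 3.34e-08), against the rise of Slc6a14 above.

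**Figure D5:**
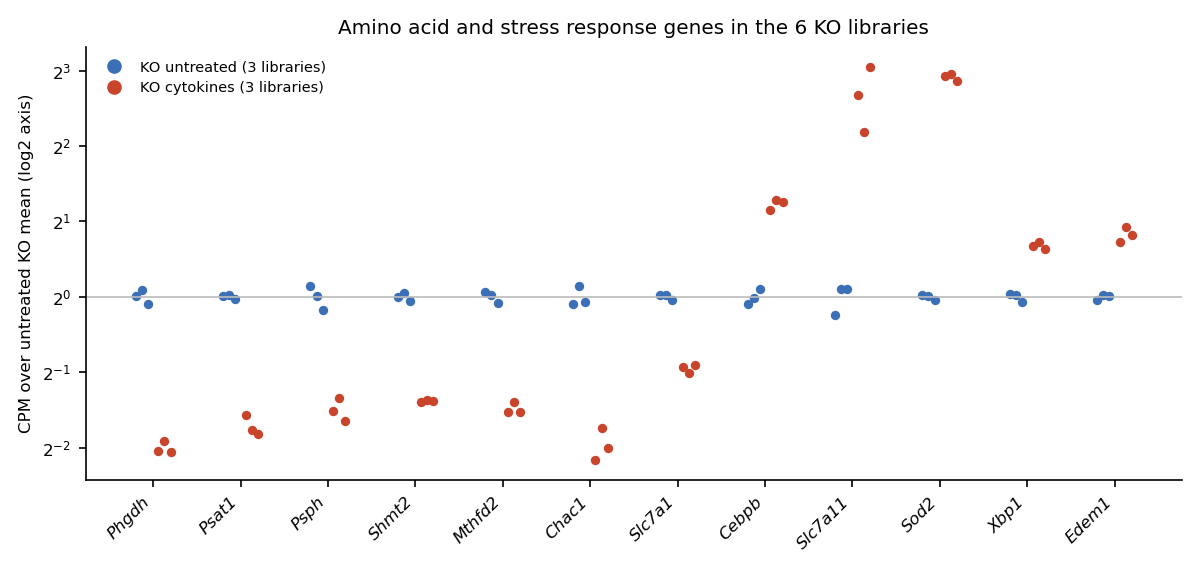
CPM in each of the 6 knockout libraries divided by the mean of the 3 untreated ones (y axis, log2 scale) for 12 amino acid and stress response genes. Phgdh, Psat1 and Shmt2 lie below the untreated libraries in all 3 treated libraries, and Slc7a11 and Sod2 lie above them. For all of these but Slc7a11 the rule that named them required this.

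Birc3, an inhibitor of apoptosis that NF-kB induces, was at 15.3, 14.2 and 22.8 CPM untreated and 233, 222 and 211 CPM after cytokines (log2 fold change 3.66 ± 0.19 SE, edgeR adjusted p = 4.05e-09). Casp4, an inflammatory caspase, lay at 1.896, 1.83 and 3.38 CPM untreated and 8.99, 9.73 and 9.68 CPM after cytokines (log2 fold change 1.99 ± 0.33 SE, edgeR adjusted p = 0.000257). Fas, the death receptor, stood at 1.06, 0.852 and 2.43 CPM untreated and 4.87, 4.49 and 3.46 CPM after cytokines (log2 fold change 1.54 ± 0.29 SE, edgeR adjusted p = 0.000613), with untreated replicate 3 the highest untreated library. Over death receptors, caspases and inhibitors 12 of 25 rose and 1 fell, or 2 without untreated replicate 1 or treated replicate 1. Of 19 BCL2 family genes 7 rose and 2 fell. The protective Bcl2l1 was at 68.1, 68.5 and 67.2 CPM untreated and 105, 110.2 and 105 CPM after cytokines and the pro-apoptotic Bmf at 16.6, 19.8 and 21.2 CPM untreated and 50.5, 50.1 and 48.3 CPM after cytokines, both higher (log2 fold change 1.37 ± 0.18 SE, edgeR adjusted p = 4.25e-05 for Bmf). Bbc3, which encodes the pro-apoptotic PUMA, lay at 18.4, 24.9 and 16.7 CPM untreated and 7.34, 7.85 and 6.49 CPM after cytokines (log2 fold change -1.47 ± 0.15 SE, edgeR adjusted p = 2.32e-06). Only 1 of the 2 lower calls held without untreated replicate 3 or treated replicate 1 or 2.

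Of 24 glycolytic genes 13 rose and 3 fell, with a median of 0.53, and 8 rose without untreated replicate 2 or treated replicate 3. Pfkfb3, which raises glycolytic flux, stood at 22.4, 13.6 and 30.4 CPM untreated and 101, 73.9 and 172 CPM after cytokines (log2 fold change 2.38 ± 0.39 SE, edgeR adjusted p = 0.000382), and Pkm, pyruvate kinase, at 1061, 861 and 1007 CPM untreated and 1388, 1320 and 1586 CPM after cytokines. Pfkfb2 (log2 fold change -0.97 ± 0.13 SE) and Pfkm (log2 fold change -0.61 ± 0.10 SE) fell. Of 39 nuclear subunits of complexes II to V 22 rose, with Cox5a at 62.95, 57.5 and 64.05 CPM untreated and 104, 104 and 95.8 CPM after cytokines, and 2 fell, with no fall without untreated replicate 1 or treated replicate 3 and 1 without untreated replicate 2 or treated replicate 1. Of 36 complex I subunits 3 rose and 1 fell, or 11.1% called, below the share of all genes. In this list 6 rose without untreated replicate 1 and 8 without treated replicate 3. Of 13 mitochondrially encoded proteins 0 were called by the main edgeR fit, DESeq2 or limma. In the main fit 0 had an unadjusted p below 0.05. But 5 rose without untreated replicate 2. With same-numbered libraries fitted as pairs, 1, mt-Nd1, rose over the 18 libraries and over the 6 knockout ones. Acod1, which makes itaconate from a TCA cycle intermediate, lay at 0.265, 0.203 and 0.328 CPM untreated and 12.4, 9.46 and 10.2 CPM after cytokines (log2 fold change 5.29 ± 0.39 SE, edgeR adjusted p = 5.8e-08), and Pdk4, which shuts pyruvate out of the cycle, at 50.4, 35.8 and 33.2 CPM untreated and 13.7, 8.75 and 11.5 CPM after cytokines (log2 fold change -1.81 ± 0.19 SE, edgeR adjusted p = 3.64e-06). Of 25 cholesterol synthesis genes 10 rose and 1 fell, and the fall was lost without any one untreated library or treated replicate 1. Mvd stood at 10.9, 10.3 and 10.3 CPM untreated and 25.1, 21.6 and 20.9 CPM after cytokines.

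Zinc genes were followed because the islets lacked ZnT8. Of 26 metallothioneins and zinc transporters 7 rose and 3 fell, Slc30a8 itself being 1 of the 3, with a median of 0.04 and 38.5% called against 31.3% of all genes. Mt2, a zinc-binding metallothionein, was at 177, 163 and 159.8 CPM untreated and 315, 360.4 and 389 CPM after cytokines (log2 fold change 1.09 ± 0.15 SE, edgeR adjusted p = 6.01e-05), and Mt1 at 272, 242 and 239 CPM untreated and 328, 367 and 407 CPM after cytokines, a call lost without untreated replicate 2 or 3 or treated replicate 2 or 3. Slc39a1, a plasma membrane zinc importer, lay at 66.3, 63.3 and 79.2 CPM untreated and 132, 127 and 138 CPM after cytokines (log2 fold change 0.93 ± 0.12 SE, edgeR adjusted p = 2.11e-05). Slc30a7, a Golgi transporter of the same family as ZnT8, had a log2 fold change of 0.49, and Slc30a1, a plasma membrane exporter, of 0.27.

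Of 30 DNA replication and mitosis genes 14 fell and 0 rose, with a median of -1.12. But 5 or 6 fell when untreated replicate 1 or 2 or treated replicate 2 or 3 was left out, and 7 without the filter on low counts. With same-numbered libraries fitted as pairs in the 6 knockout libraries alone, 24 fell. Ccna2, cyclin A2, stood at 7.43, 8.97 and 5.41 CPM untreated and 2.33, 1.61 and 1.54 CPM after cytokines (log2 fold change -1.98 ± 0.50 SE, edgeR adjusted p = 0.00772), and Mcm2, a replication helicase subunit, at 17.8, 15.9 and 19.5 CPM untreated and 12.8, 10.9 and 12.2 CPM after cytokines. The D cyclins Ccnd2, at 721, 746 and 641 CPM untreated and 383, 425 and 402 CPM after cytokines (log2 fold change -0.80 ± 0.11 SE, edgeR adjusted p = 4.78e-05), and Ccnd1 (log2 fold change -0.90 ± 0.16 SE) fell, and the inhibitor Cdkn2b, at 9.67, 7.26 and 8.65 CPM untreated and 23.1, 30.01 and 21.3 CPM after cytokines, rose (log2 fold change 1.54 ± 0.12 SE, edgeR adjusted p = 1.28e-07). Of 27 Wnt ligands, receptors and inhibitors 3 rose and 6 fell, or 33.3% called, close to the 31.3% of all genes. Wnt4 was at 88.4, 87.6 and 69.5 CPM untreated and 8.85, 9.195 and 7.76 CPM after cytokines (log2 fold change -3.25 ± 0.21 SE, edgeR adjusted p = 4.63e-08), and Sfrp5, a secreted Wnt inhibitor, at 24.1, 17.5 and 15.2 CPM untreated and 2.89, 2.06 and 0.998 CPM after cytokines. Of 23 immediate early factors 11 rose and 1 fell, a fall lost without any one untreated library or treated replicate 1 or 2. Junb lay at 109.6, 121 and 158 CPM untreated and 369, 361 and 391 CPM after cytokines (log2 fold change 1.53 ± 0.16 SE, edgeR adjusted p = 5.26e-06). Of 19 clock genes 2 rose and 7 fell, and 4 fell without untreated replicate 2 or treated replicate 1, while the higher calls numbered 4 without untreated replicate 1 and 1 without untreated replicate 2 or treated replicate 3. Npas2, a partner of the clock factor BMAL1, stood at 13.99, 19.1 and 18 CPM untreated and 62.1, 68.8 and 63.1 CPM after cytokines (log2 fold change 1.93 ± 0.12 SE, edgeR adjusted p = 8.87e-09). Of 8 epithelial keratins Krt8 rose (log2 fold change 0.42 ± 0.14 SE), a call lost without untreated replicate 1 or 3 or treated replicate 1 or 3.

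The knockout response was set against that of the other genotypes by the test of the difference itself in the same fit. Against wild type, 2 genes were called, which is 0.0114% of the genes tested, and 1184 had an unadjusted p below 0.05. DESeq2 called 53 and limma 15. Against heterozygotes 0 genes were called by edgeR, which is 0%, with 1008 at an unadjusted p below 0.05, and DESeq2 called 1 and limma 0. Slc6a14 was one of the 2: its mean rose from 0.956 to 30.2 CPM in wild-type, 0.38 to 37.4 CPM in heterozygous and 0.038 to 42.9 CPM in knockout islets. The difference from wild type was 5.05 (log2, edgeR adjusted p = 0.0374), and the call was lost without any one of the 6 knockout libraries, with adjusted p from 0.0533 to 0.154. Among the 738 genes that rose at least 2-fold in knockout islets, 613 had the larger log2 fold change in the knockout, with medians of 1.75 and 1.39 in knockout and wild type. Chosen instead as the 624 that rose at least 2-fold in wild type, 376 were larger in the knockout, with medians of 1.84 and 1.78. Of 712 genes that fell at least 2-fold in knockout islets, 559 fell further there, with knockout and wild-type medians of -1.426 and -1.109. Of 516 that fell at least 2-fold in wild type, 208 fell further in the knockout, with medians of -1.255 and -1.354. The choice of genes thus moved the gap. In the main edgeR fit no gene of the lists above other than Slc6a14 had a called difference from wild type. How many list genes were among the DESeq2 and limma calls was not counted.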

How the data were processed

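Gene counts were the authors' deposited table of raw reads per gene for 18 libraries. Per the submitters' processing notes, FastQC 0.11.7, cutadapt 1.16, STAR 2.5.2a, featureCounts 1.6.2, DESeq2 1.30.0 and the build GRCm38 were used, without their settings. Whether counting used strand, or how reads shared by gene copies were handled, is not stated in the labels. From the counts, genes passing filterByExpr (count minimum 10) were scaled by TMM and fitted with edgeR 4.0.16 (quasi-likelihood, robust) in R 4.3.3, with 1 mean per group over all 18 libraries and 12 residual degrees of freedom. Adjusted p-values are Benjamini-Hochberg over the 17590 genes, two-sided, with a threshold of 0.05. The fit was tested on simulated data. Other fits used RLE size factors, no filter, the genes of the authors' filtered table, the 6 knockout libraries alone, DESeq2 1.42.0, limma 3.58.1 (voom with sample quality weights), a replicate block, and each knockout library left out. Genes were named by rules: Slc30a8 and the hormones, the 12 largest changes and 10 smallest p-values each way among called genes with a mean of at least 2 CPM, groups that did not overlap and no placeholder symbol, up to 6 per list, and the genes whose response differed between genotypes. The members and the 55 gene lists were chosen with earlier results of these data known. Named after their values were seen were Abcc8, Aldh1l2, Asns, Ass1, Atf4, B2m, Ccl22, Ccl24, Cebpd, Cxcl10, Cxcl5, Ddit3, Fga, Fgb, Fgg, Gbp2, Gbp5, Gcgr, Gipr, Glp1r, Gpr119, H2-D1, Hspa5, Ifngr1, Il1b, Il1r1, Irf7, Kcnj11, Lrat, Lrg1, Mt1, Neurod1, Nfkb2, Pck2, Pcsk1, Plet1, Relb, Saa1, Saa2, Socs1, Sprr2f, Tnfaip3, Trib3 and Zc3h12a. Results for some list members are not reported here. Marker sums are CPM of total reads. Depth per library and the number of libraries limit precision, and count intervals cover counting error only.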

Additional observations from a re-analysis of the deposited data

Results flagged for a closer look

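A difference between genotypes in the size of the cytokine response was called for 2 genes. Slc6a14, the amino acid importer on chromosome X, rose by 5.05 log2 units more in knockout than in wild-type islets (edgeR adjusted p = 0.0374, 3.76e-05 to 0.165 over the alternatives). Its untreated level in the knockout rested on 3 reads in all, so the fitted size depends on the prior count. Gm19680, a processed pseudogene on chromosome 1, differed by -2.40 log2 units (edgeR adjusted p = 0.0374, 0.00132 to 0.142 over the alternatives), with means from 1.06 to 2.08 CPM in wild-type and 0.992 to 0.367 CPM in knockout islets. Both calls were lost without any one knockout library. Reads of a pseudogene may come from its parent gene. Groups of 3 libraries were too small to test a single library against its group. Untreated knockout replicate 3 was described above by its values, without a test.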

How the results depend on the processing

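The counts of genes that rose (2683) and fell (2821) stayed within 1.5 times under every one of the 14 alternatives, from 4361 to 5136 in all when 1 knockout library was left out and 7318 with limma. The count of genes whose response differed from wild type was 4 without the filter, 0 over the genes of the filtered table, which were chosen as an alternative after seeing the data, 53 with DESeq2, 15 with limma, 1 with the replicate block and 0 to 2 with 1 knockout library left out. Against heterozygotes it was 1 with DESeq2. Ccl24 turned to 0.40 with limma and to 2.16 without untreated replicate 3, and ranged from -5.93 to 2.16 over the libraries left out. Its DESeq2 p was not given. Treated and untreated libraries share replicate numbers, and the labels do not say whether these mark shared animals. The main fit did not pair them, and whether they are pairs was left undetermined. Same-numbered untreated and treated knockout libraries deviated together with correlations of 0.048, 0.194 and 0.392. Of the 3 untreated libraries, 2 correlated best with their own number. A replicate block gave 5537 calls over the 18 libraries and 5214 over the 6 knockout libraries. With it 12 of 19 pericyte and stellate markers fell in both fits, 24 of 30 DNA replication genes fell in the 6 knockout libraries, and 1 NF-kB gene and 1 acinar marker fell in both fits, as did 1 cytokine gene over the 18 libraries. Of the list counts, 195 of 1540 moved by over 1.5 times. The causes were not tested. A gene at 1 read per library lies near 0.0337 CPM, which bounds what low genes can show.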

Other observations

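Genes outside the lists changed too, and the ones named here were chosen after their values were seen. Lrg1, a secreted leucine-rich glycoprotein, was at 15.8, 6.53 and 16.6 CPM untreated and 1033, 874 and 1271 CPM after cytokines (log2 fold change 6.34 ± 0.66 SE, edgeR adjusted p = 7.51e-06). Plet1, an epithelial surface protein, was at 4.17, 5.92 and 5.51 CPM untreated and 329, 324 and 276 CPM after cytokines (log2 fold change 5.89 ± 0.38 SE, edgeR adjusted p = 7.31e-08). Zc3h12a, an RNase that degrades cytokine mRNAs, was at 5.802, 5.44 and 9.604 CPM untreated and 218, 203 and 187 CPM after cytokines, and Cebpd, a factor of the acute-phase response, at 30.4, 28.1 and 36.8 CPM untreated and 379.6, 408 and 392 CPM after cytokines. All 4 lay higher in each treated library than in any untreated one. Aldh1l2, a mitochondrial folate enzyme, went the other way, at 169.5, 186 and 158 CPM untreated and 31, 41.9 and 38.4 CPM after cytokines (log2 fold change -2.21 ± 0.16 SE, edgeR adjusted p = 8.24e-08), as did Pck2, the mitochondrial PEP carboxykinase, at 179.6, 202 and 165 CPM untreated and 56.6, 60.3 and 51.7 CPM after cytokines (log2 fold change -1.70 ± 0.12 SE, edgeR adjusted p = 5.57e-08).

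There were 14 runs of at least 3 tested protein-coding genes in a row that were all called and at least 2-fold higher, and how many chance would give was not tested. The longest by number of genes was 6 Sprr2 genes, cornified envelope proteins, on chromosome 3 (92316620-92409271, GRCm38), with Sprr2f at 0.0379, 0 and 0 CPM untreated and 2.93, 1.39 and 6.91 CPM after cytokines. These are near copies, so reads may be split between them, as in the Gbp run of 5 genes on chromosome 5 (105014150-105293698), the 3 Serpina3 genes on chromosome 12 and the 3 Saa genes on chromosome 7. Runs of unlike genes included Lrat, Fgg, Fga and Fgb on chromosome 3 (82892579-83049863), where Lrat, which esterifies retinol, had 0 untreated and 197 treated reads and was at least 69.8-fold higher.

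Most genes strongly induced in the other genotypes had a lower untreated mean in the knockout. The same share over all genes was not counted. Untreated acinar markers summed to 9970 to 10250 CPM in wild-type and 1953 to 2966 in knockout islets. Duct markers summed to 3535 to 4772 and 2215 to 2991 CPM. Beta cell markers went the other way, at 171000 to 192100 and 193500 to 224200 CPM. The part of these differences in the lower means was not tested. Of 65 genes that rose at least 16-fold in wild-type islets, 42 had a lower untreated mean in the knockout than in wild type and 37 a lower treated mean, and the median ratio of knockout to wild type was 0.519 untreated and 0.913 treated. Of 64 chosen the same way in heterozygotes, 41 had a lower untreated mean in the knockout than in heterozygotes, with median ratios of 0.604 and 1. S100a9 had untreated means of 21.6 CPM in wild-type, 9.18 CPM in heterozygous and 1.02 CPM in knockout islets, and treated means of 582, 478 and 488 CPM. Lcn2 had untreated means of 363.5, 354.8 and 105 CPM and treated means of 5526, 5611 and 5293 CPM. The untreated difference between genotypes was not tested here, and the differences in response of these 2 genes were not called (adjusted p = 0.433 for S100a9 and 0.479 for Lcn2 against wild type).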
